A study of Saccharomyces cerevisiae with 4 samples.

Results

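RNA polymerase III of budding yeast (Saccharomyces cerevisiae) has 10 subunits that no other nuclear RNA polymerase contains. Their genes are RPO31, RET1, RPC82, RPC34, RPC31, RPC53, RPC37, RPC11, RPC25 and RPC17. They were chosen by name for their place in the enzyme and not by a measured value, and all 10 were found among the 7126 features of the count table. Polyadenylated RNA had been sequenced from a wild-type strain (MH1006) and from a strain with the ulp1-I615N allele (MH1018), with 2 libraries from each. Both strains were labelled MATa with lys1::kanMX4, ade3-delta, ade2-delta, trp1-289, ura3-52 and leu2-3,112, and both were grown at 30 °C in YPD, a rich glucose medium, to mid-log phase. ADE2 had 3116 to 7104 counts and ADE3 1368 to 3250 counts per library, although both are labelled as deleted. Counts per gene do not tell which part or copy of a gene was read, so the reason is not known. ULP1 encodes a protease that processes SUMO, a small protein attached to other proteins, and removes it from them. The labels give 1 strain for each genotype and do not tell whether the libraries of a group are separate cultures. A p-value here therefore reflects only how far these libraries vary, and that variation may be technical.

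RNA polymerase III makes transfer RNAs, the smallest ribosomal RNA and a few other short RNAs. TFIIIC binds elements inside the transcribed gene and places TFIIIB upstream of the start, and TFIIIB recruits the polymerase, while the protein Maf1 represses the enzyme when growth slows. In yeast several subunits of the enzyme are known to be modified by SUMO. Genes for subunits of RNA polymerases I and III often carry an upstream element called PAC, after the older names polymerase A and C, and many genes of ribosome assembly carry PAC together with the element RRPE.

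The upstream stretches that hold both elements in 6 of the subunit genes are shown first, because genes that hold them across the genome were more often lower in the mutant, as given at the end of the results. They are read 5′ to 3′ in the direction of the gene from the RefSeq R64 genome (sacCer3), and the capitals mark PAC (GCGATGAG) or its core (GATGAG) and RRPE (AAAAATTT), on either strand. RPC53 has a further core match that ends on the first capital of the one marked and is left in lower case. The coordinates are chrXV:544226-544266 for RPO31, chrXV:733557-733598 for RET1, chrXVI:919146-919189 for RPC82, chrXI:176645-176687 for RPC25, chrXIV:635341-635405 for RPC34 and chrIV:183093-183170 for RPC53. All are on the minus strand except that of RPC53. Those of RPC25 and RPC53 lie nearer to the start of a divergent neighbour than to that of the subunit gene, as given below.
RPO31: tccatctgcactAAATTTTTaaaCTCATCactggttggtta
RET1: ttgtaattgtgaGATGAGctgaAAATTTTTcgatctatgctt
RPC82: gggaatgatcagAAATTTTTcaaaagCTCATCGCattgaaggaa
RPC25: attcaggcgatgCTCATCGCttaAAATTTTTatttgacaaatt
RPC34: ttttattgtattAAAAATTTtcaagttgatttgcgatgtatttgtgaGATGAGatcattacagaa
RPC53: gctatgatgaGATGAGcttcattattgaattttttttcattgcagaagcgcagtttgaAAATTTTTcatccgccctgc
RPC31, the gene with the lowest log2 fold change of the 10, held PAC without RRPE. Its stretch at chrXIV:348567-348634 on the minus strand carries PAC in capitals.
RPC31: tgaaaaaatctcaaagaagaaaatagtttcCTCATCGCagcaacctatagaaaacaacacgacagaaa
RPC17 held neither element. The 250 bases before its start, at chrX:414771-415020 on the minus strand, are shown for contrast, with the 55 bases that lie inside the lysine tRNA gene tK(CUU)J in capitals. That tRNA gene is on the opposite strand and is itself a template of RNA polymerase III.
RPC17: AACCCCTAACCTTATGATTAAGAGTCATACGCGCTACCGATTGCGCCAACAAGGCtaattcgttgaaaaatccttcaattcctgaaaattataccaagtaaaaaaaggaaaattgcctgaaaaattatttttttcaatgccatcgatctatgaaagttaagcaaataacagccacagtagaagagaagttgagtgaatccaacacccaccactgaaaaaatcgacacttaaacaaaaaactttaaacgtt

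Transcripts of 8 of the 10 subunit genes were lower in the mutant by the quasi-likelihood test of edgeR with Benjamini-Hochberg adjustment over all 6139 genes tested (adjusted p under 0.05). Of all genes tested, 24.3% were called lower and 26.4% higher, 50.8% in all. Outside chromosome X 25.9% were called lower and 22.3% higher. No member was called higher by edgeR, DESeq2 or limma-voom, each with its main scaling, and none was higher at an unadjusted p under 0.05 in edgeR. The 2 members without a call were RPC11 and RPC17, and RPC17 was the only member on chromosome X. The median log2 fold change of the 10 genes was -0.31, and that of the 9 outside chromosome X was -0.34, beside 0.0097 for all genes tested. In each of the 10 genes the groups did not overlap, which was also so for 74.1% of all genes tested. With scaling to library totals alone the median of all genes shifted by 0.13, the genome-wide calls went from 1622 higher and 1494 lower to 2217 higher and 866 lower, 5 members were lower and 1, RPC17, was higher.

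**Figure D1:**
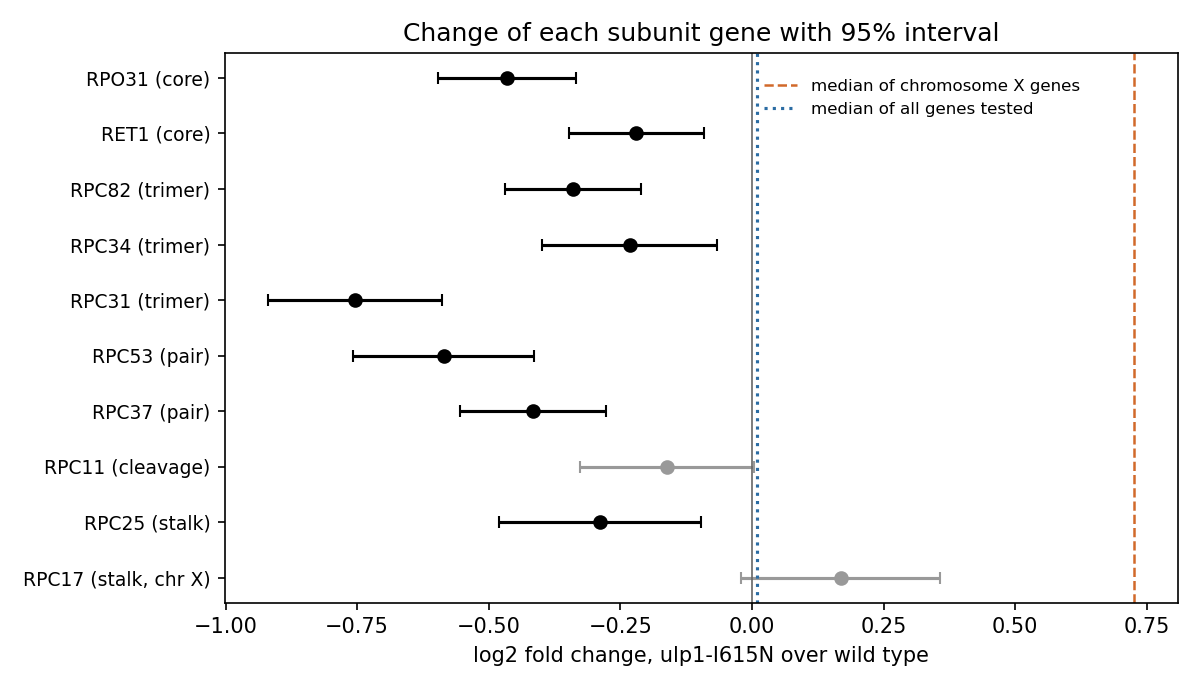
Log2 fold change of each subunit gene, ulp1-I615N over wild type, with its 95% interval from the edgeR fit (2 libraries per group); black points were called at an adjusted p under 0.05 and grey points were not. RPC31 lies lowest at -0.75 and RPC17 is the only point above 0, at 0.17, well short of the dashed median of chromosome X genes at 0.73.

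Expression is given in CPM, which are counts divided by library size and brought to one scale, with library sizes corrected by the trimmed mean of M-values, and the 10 genes together reached 1234 and 1266 CPM in wild type replicates 1 and 2 and 968 and 964 CPM in the mutant replicates. Both mutant sums were below both wild-type sums. In RNA of a whole culture, fewer cells that express a gene and less RNA per cell cannot be told apart. Total counts ran from 13244131 to 26723470 per library, so that a gene with a count of 0 could still lie at up to 0.227 CPM in the shallowest library (3 counts, counting error only). The lowest count of any member was 554, so none was near that limit. The share of counts on chromosome X was 5.58% for both wild-type libraries, while the mutant libraries reached 9.13% and 9.16%. Its 373 tested genes had a median log2 fold change of 0.73, with 90.6% called higher and 0.536% lower. Both mutant libraries had this rise, so the ULP1 allele and the state of chromosome X cannot be told apart as the source of any difference between the groups. ULP1 itself, which is outside chromosome X, had 74.4 and 66.8 CPM in wild type and 79.7 and 74.4 CPM in the mutant (adjusted p = 0.193, edgeR), and its allele cannot be read from counts.

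The catalytic core is formed by the 2 large subunits. RPO31 (YOR116C, chrXV:539763-544145, minus strand) encodes the largest, which holds the active site. It had 257 and 276 CPM in the wild-type libraries and 192 and 194 CPM in the mutant libraries. Both mutant values were low and close to each other, and the groups were well apart. The mean went from 267 ± 13.6 to 193 ± 1.28 CPM (SD, n = 2 each), a log2 fold change of -0.47 ± 0.06 (SE; edgeR adjusted p = 1.13e-05). RET1 (YOR207C, chrXV:730008-733457, minus strand) encodes the second largest subunit, which closes the active centre from the other side. It had 234 and 245 CPM in wild type and 202 and 209 CPM in the mutant. The groups did not overlap, but the gap was smaller than for RPO31. The log2 fold change of RET1 was -0.22 ± 0.06 (SE; edgeR adjusted p = 0.00628). That call ended with library totals (log2 fold change -0.09) and without mutant replicate 1 (-0.19).

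RPC82, RPC34 and RPC31 encode a trimer on the clamp of the enzyme that helps to open the promoter and resembles TFIIE of the RNA polymerase II system. RPC31 (YNL151C, chrXIV:347766-348521, minus strand), whose protein has an acidic tail, had 128 and 144 CPM in wild type and 86.0 and 76.3 CPM in the mutant. No other member was lowered as far, and the gap between the groups was wider than the spread within either. The mean went from 136 ± 11.2 to 81.2 ± 6.89 CPM (SD, n = 2 each), a log2 fold change of -0.75 ± 0.08 (SE; edgeR adjusted p = 1.26e-06), which put RPC31 at the 1.96th percentile of the changes of all genes tested. RPC82 (YPR190C, chrXVI:917077-919041, minus strand), the largest protein of the trimer, had 149 and 154 CPM in wild type and 119 and 121 CPM in the mutant. Its libraries agreed closely within each group and the groups were apart. The log2 fold change of RPC82 was -0.34 ± 0.06 (SE; edgeR adjusted p = 0.000223), and -0.21 with library totals.

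RPC34 (YNR003C, chrXIV:634344-635297, minus strand) encodes the trimer subunit that contacts TFIIIB. It had 67.0 and 73.4 CPM in wild type and 62.3 and 57.7 CPM in the mutant. The highest mutant library lay just under the lowest wild-type library, so the gap was smaller than the difference between the wild-type libraries. The log2 fold change of RPC34 was -0.23 ± 0.08 (SE; edgeR adjusted p = 0.0210). This call ended with library totals (-0.10), with DESeq2 (adjusted p = 0.0594), without wild type replicate 2 (-0.17) and without mutant replicate 2 (-0.17).

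RPC53 and RPC37 encode a pair that resembles TFIIF and acts in initiation, termination and re-use of the enzyme on the same gene. RPC53 (YDL150W, chrIV:183343-184611, plus strand) had 116 and 99.9 CPM in wild type and 75.4 and 68.8 CPM in the mutant. All mutant values were below all wild-type values, although the wild-type libraries differed from each other. The mean of RPC53 went from 108 ± 11.4 to 72.1 ± 4.70 CPM (SD, n = 2 each), a log2 fold change of -0.59 ± 0.08 (SE; edgeR adjusted p = 2.58e-05). RPC37 (YKR025W, chrXI:487770-488618, plus strand) had 131 and 121 CPM in wild type and 93.9 and 94.8 CPM in the mutant. Its mutant libraries were nearly equal and both were low. The log2 fold change of RPC37 was -0.42 ± 0.07 (SE; edgeR adjusted p = 6.80e-05).

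RPC11 (YDR045C, chrIV:547978-548310, minus strand) encodes a small subunit that lets the enzyme cleave its own RNA and works with the pair in termination. It had 58.9 and 63.3 CPM in wild type and 55.0 and 54.5 CPM in the mutant. The groups did not overlap, but the difference did not pass the test (log2 fold change -0.16 ± 0.08, 95% interval -0.33 to 0.0035, edgeR adjusted p = 0.0971). Without wild type replicate 1 the log2 fold change was -0.23 and RPC11 was called lower (adjusted p = 0.0409), whereas it was -0.03 with library totals (adjusted p = 0.808).

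The stalk, RPC25 and RPC17, corresponds to the Rpb7 and Rpb4 proteins of RNA polymerase II and takes part in initiation. RPC25 (YKL144C, chrXI:175843-176481, minus strand) had 53.0 and 52.7 CPM in wild type and 39.6 and 46.4 CPM in the mutant. The wild-type libraries were nearly equal, the mutant libraries were further apart, and both mutant values were below. The log2 fold change of RPC25 was -0.29 ± 0.09 (SE; edgeR adjusted p = 0.0138). The call ended with library totals (-0.16) and without mutant replicate 1 (-0.19).

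RPC17 (YJL011C, chrX:414285-414770, minus strand), its partner in the stalk, had 39.3 and 36.0 CPM in wild type and 43.2 and 41.4 CPM in the mutant. It was the only member with both mutant values above both wild-type values. The log2 fold change of RPC17 was 0.17 ± 0.09 (SE), with a 95% interval from -0.02 to 0.36, and it did not pass the test (edgeR adjusted p = 0.129). With library totals it was called higher, at 0.30 (adjusted p = 0.0164). Against the median of chromosome X, RPC17 stood at -0.56, and it lay at the 5.50th percentile of the 373 tested genes of that chromosome.

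**Figure D2:**
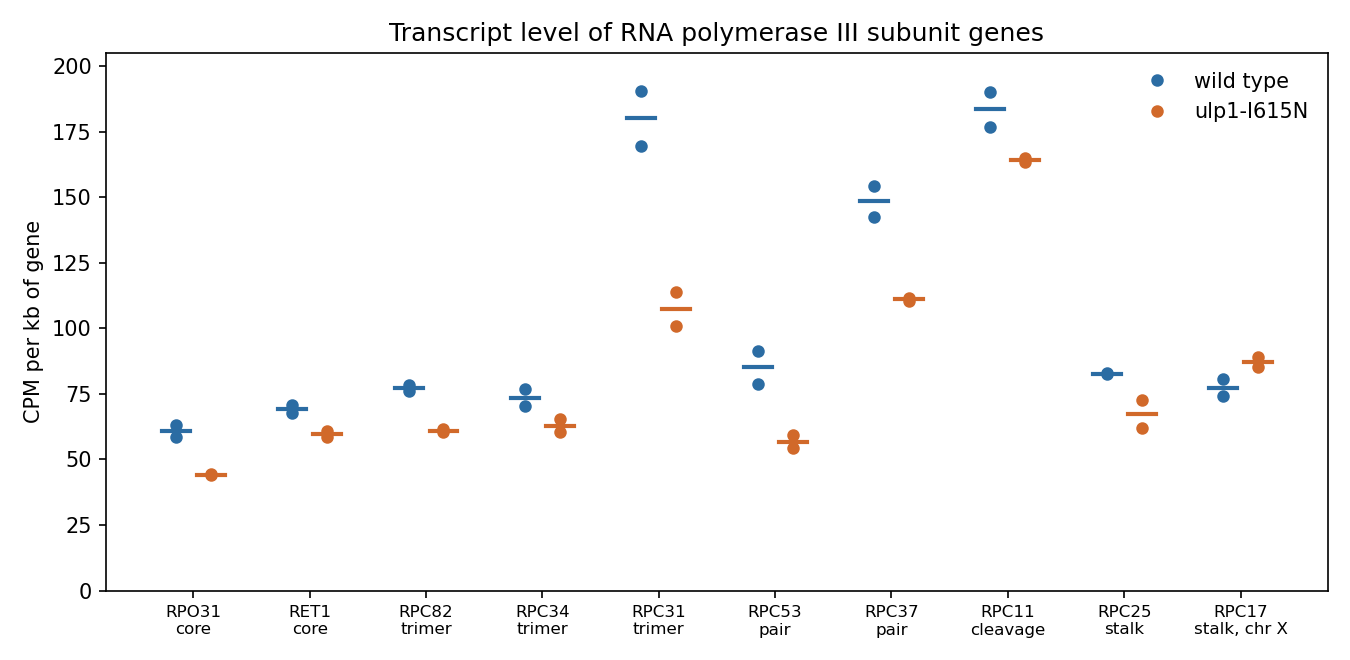
Transcript level of the 10 subunit genes in CPM per kb of gene; each point is 1 library, each bar the mean of the 2 libraries of a group, and the text under each name gives its place in the enzyme. The mutant points lie below the wild-type points for every gene except RPC17.

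Per kb of gene, 3 of the genes for smaller subunits had the highest levels. In wild type RPC11 (184 ± 9.40 CPM per kb, SD, n = 2), RPC31 (180 ± 14.8) and RPC37 (148 ± 8.23) stood above the other members. RPC11 and RPC31 overlapped, and RPC37 was apart from its neighbours on both sides. The other 7 genes lay between 85.1 ± 8.95 CPM per kb for RPC53 and 60.9 ± 3.10 for RPO31, in the order RPC53, RPC25, RPC17, RPC82, RPC34, RET1 and RPO31. Among these, RPC25 was apart from RPC17 and RET1 from RPO31, and the other neighbours overlapped. In the mutant, RPC11 (164 ± 1.12 CPM per kb) again had the highest level and RPO31 (44.1 ± 0.291) the lowest. RPC37 and RPC31 followed RPC11 and overlapped each other. RPC17 was at rank 6 of 10 in wild type and rank 4 in the mutant, at 87.1 ± 2.59 CPM per kb and apart from both neighbours. RPC53 was at rank 4 in wild type and rank 9 in the mutant, at 56.8 ± 3.70 CPM per kb. Between RPC17 and RPC53 stood RPC25, RPC34, RPC82 and RET1, which overlapped from one neighbour to the next. RET1 also overlapped RPC53, so the rank of RPC53 among these genes is not settled.

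Partner subunits were also compared within each library, as ratios of counts per base, which do not depend on how libraries are scaled. The ratio of RPC31 to RPC34 was 2.42 and 2.48 in the wild-type libraries against 1.74 and 1.67 in the mutant libraries, a difference of -0.52 on the log2 scale. RPC31 was thus lowered further than its partner, and the groups were clearly apart. The ratio of RPC17 to RPC25 was 0.975 and 0.897 in the wild-type libraries against 1.44 and 1.17 in the mutant libraries, a log2 difference of 0.47. The stalk genes therefore moved from near-equal transcript levels per base to more RPC17 than RPC25. RPC17 is on chromosome X, whose tested genes had a median log2 fold change of 0.73, and RPC25 is not. This shift and the rise of that chromosome cannot be told apart. Against that median RPC17 stood at -0.56, and RPC25 had a log2 fold change of -0.29. The ratio of RPO31 to RET1 was 0.866 and 0.889 in the wild-type libraries against 0.751 and 0.730 in the mutant libraries (log2 difference -0.24). The core genes kept RET1 above RPO31 in every library, by more in the mutant. The log2 difference was 0.26 for RPC11 to RPC37, -0.16 for RPC53 to RPC37 and -0.11 for RPC82 to RPC34. The size of the 3 values just given depended on single libraries, and so did that for RPC17 to RPC25, while their signs did not change. The difference for RPC17 to RPC25 was 0.33 without mutant replicate 1 and 0.62 without mutant replicate 2. The difference for RPC11 to RPC37 was 0.15 without wild type replicate 1, and that for RPC53 to RPC37 was -0.09 without mutant replicate 2. That for RPC82 to RPC34 was -0.07 without wild type replicate 1, -0.05 without mutant replicate 1 and -0.18 without mutant replicate 2. In each of the 6 pairs the groups did not overlap, and each gave p = 0.333 in an exact two-sided permutation test, which is the smallest p that 2 libraries against 2 can give (adjusted p = 0.333 over the 6 pairs).

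The remaining subunits of the enzyme are shared with other polymerases and were lower as well. Of those shared with RNA polymerase I, RPC40 (log2 fold change -0.56) and RPC19 (-0.40) were both called lower. All 5 subunits shared by the 3 polymerases were called lower, RPB5 by -0.52, RPO26 by -0.47, RPB8 by -0.40, RPB10 by -0.37 and RPC10 by -0.29. RPC10 was not called with library totals (-0.16) or without mutant replicate 1 (-0.16), and stood at -0.45 without mutant replicate 2. With the 8 specific subunits, 15 of 17 genes of the enzyme were therefore lower, beside 24.3% of all genes tested. RPC11 and RPC17 were not called. With library totals 5 of the 10 specific subunits were lower, as were both subunits shared with RNA polymerase I. Of the 5 shared by the 3 polymerases 4 were then lower, and RPC17 was called higher. Over all 6139 genes that scaling gave 866 lower.

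The initiation factors were a mixed group. Of the 6 TFIIIC genes, which encode the factor that recognises the internal promoter, none was called by edgeR, DESeq2 or limma-voom and none had an unadjusted p under 0.05 in edgeR. Their median log2 fold change was -0.0049, from -0.10 for TFC1 to 0.06 for TFC6. Of the 3 TFIIIB genes, SPT15, which encodes the TATA-binding protein used by all 3 polymerases, was lower (105.7 and 112 CPM in wild type, 78.9 and 74.9 in the mutant, log2 fold change -0.50, edgeR adjusted p = 1.34e-05). BDP1 was lower by less (-0.23, edgeR adjusted p = 0.0108), and its call ended with library totals (-0.10), without wild type replicate 1 (-0.17) and without mutant replicate 2 (-0.19). BRF1, the TFIIIB subunit particular to RNA polymerase III, had 64.1 and 58.5 CPM in wild type and 64.6 and 63.2 CPM in the mutant and was not called (0.06, edgeR adjusted p = 0.541). PZF1, which encodes TFIIIA, the factor for the small ribosomal RNA gene, was lower (-0.27, edgeR adjusted p = 0.0262). The PZF1 call ended with library totals (-0.13), with DESeq2 (-0.27, adjusted p = 0.0721), without wild type replicate 2 (-0.19) and without mutant replicate 2 (-0.18). Whether the subunits and the factors differ in their changes was not tested.

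**Figure D3:**
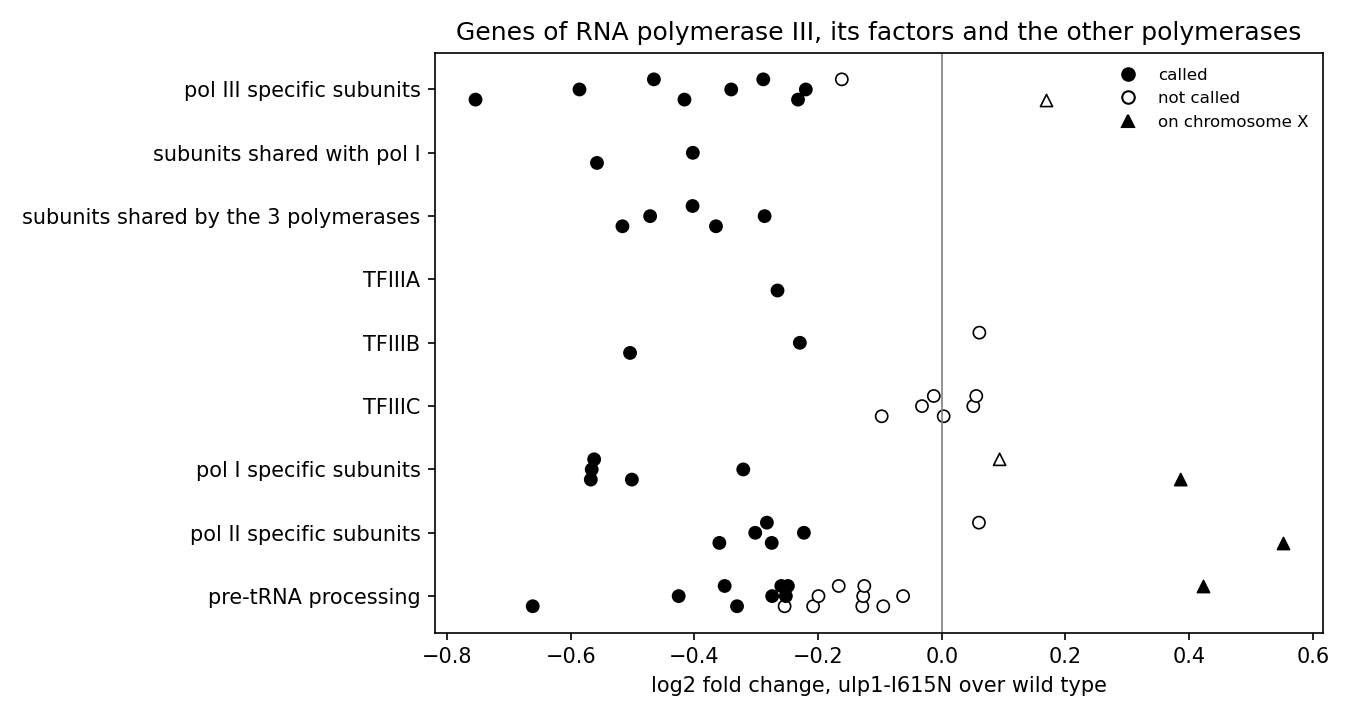
Log2 fold changes, ulp1-I615N over wild type, of single genes in 9 groups; filled symbols were called, open symbols were not, and triangles mark genes on chromosome X. All TFIIIC symbols are open and lie near 0, and the triangles in the polymerase groups lie to the right of 0.

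Of 10 regulators of RNA polymerase III, 6 were called lower, 1 higher and 3 not (median log2 fold change -0.22). The counts of the main fit in this paragraph stand beside 24.3% lower and 26.4% higher over all genes tested. Those with library totals stand beside 866 lower and 2217 higher of 6139 genes. MAF1, the repressor, had 52.5 and 52.1 CPM in wild type and 54.0 and 50.3 CPM in the mutant, so the groups overlapped (log2 fold change -0.0065, edgeR adjusted p = 0.954). KNS1, a kinase that acts on the subunit Rpc53, was higher, with 42.6 and 38.1 CPM in wild type and 67.2 and 59.7 CPM in the mutant (0.65, edgeR adjusted p = 1.80e-05), and it overlaps 2 other features. PPH3, the catalytic subunit of the phosphatase that acts on Maf1, was lower (-0.46). With library totals 2 regulators were lower. Of 8 genes of polymerase assembly and nuclear import, 4 were called lower and 2 higher (median -0.15), and none was lower with library totals. NPA3, a GTPase needed to import the polymerases, was one of the higher genes (0.64) and lies on chromosome X. Of 12 genes of the SUMO pathway 4 were called lower, 1 higher and 7 not (median -0.07), and with library totals 1 was lower and 3 were higher. UBC9, the enzyme that conjugates SUMO to its targets, was lower (-0.34), with 79.2 and 79.0 CPM in wild type against 64.7 and 60.9 CPM in the mutant libraries.

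Over all genes tested 24.3% were called lower and 26.4% higher, and with library totals 866 of 6139 were lower and 2217 higher. Among 18 genes of pre-tRNA processing, 8 were called lower, 1 higher and 9 not, with a median log2 fold change of -0.23, and with library totals 3 were lower. LHP1, the yeast La protein that binds the ends of new RNA polymerase III transcripts, was the lowest of these, with 175 and 208 CPM in wild type and 120 and 123 CPM in the mutant (-0.66, edgeR adjusted p = 5.91e-06). TRL1, the tRNA ligase, was higher (0.42) and lies on chromosome X. The products of the enzyme were barely captured, since the libraries were made from polyadenylated RNA, and their counts are no measure of RNA polymerase III output. Of 275 nuclear tRNA genes 18 passed the filter on low counts, with 1 called higher and 1 lower. SCR1, the RNA of the signal recognition particle, had 177 and 141 counts in wild type against 311 and 398 in the mutant libraries, and was called higher (0.89, edgeR adjusted p = 0.0220; 0.57 without mutant replicate 1). RPR1, the RNA of RNase P, had 92 and 67 counts in wild type against 120 and 277 in the mutant libraries, and was called higher (0.95, edgeR adjusted p = 0.00276; 0.61 without wild type replicate 2).

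The specific subunits of RNA polymerase I (7 genes) and II (7 genes) were also mostly lower outside chromosome X. Of all genes tested 24.3% were called lower and 26.4% higher, and outside chromosome X 25.9% lower and 22.3% higher. Of the RNA polymerase I genes 5 were called lower, 1 higher and 1 not, with a median log2 fold change of -0.50. RPA190, which encodes its largest subunit, was at -0.57. RPA34 and RPA12, the ones on chromosome X, were at 0.09 (not called, but called higher at 0.23 with library totals) and 0.39 (higher), which is -0.63 and -0.34 against the median of that chromosome. Of the RNA polymerase II genes 5 were called lower, 1 higher and 1 not, with a median of -0.27. RPB4, the counterpart of RPC17, is also on chromosome X and was higher at 0.55, which is -0.17 against the median of that chromosome. RPB7, the counterpart of RPC25, was lower at -0.36 (-0.23 with library totals). With library totals 4 of the RNA polymerase I genes and 1 of the RNA polymerase II genes were lower, beside 866 of all 6139. No test compared the 3 polymerases with each other.

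RPC17 lay among genes that were mostly higher, as were those of chromosome X as a whole. Of the 373 tested genes of that chromosome 90.6% were called higher, with a median log2 fold change of 0.73. Within 50 kb of the start of RPC17, 49 other genes were tested, with a median log2 fold change of 0.72. Of these 44 were called higher, 2 lower and 3 not. The 5 with a lower value than RPC17 were picked out after their values were seen. They were VTC4 (-0.28), a subunit of the polyphosphate polymerase, and MET3 (-0.23), ATP sulfurylase, both called lower. The MET3 call ended with library totals (-0.10), without wild type replicate 2 (-0.19) and without mutant replicate 2 (-0.16). The others were HCA4 (0.03) and MPP10 (0.09), which act in ribosome assembly and were called higher only with library totals (0.16 and 0.22), and NOP9 (0.15). VTC4 and NOP9, an RNA-binding protein of ribosome assembly, are the nearest protein-coding neighbours of RPC17, 885 bases downstream and 2791 bases upstream. NOP9 was called higher with an adjusted p of 0.0493 (edgeR), and the call ended when any 1 of the 4 libraries was left out, with log2 fold changes from 0.11 to 0.19, and also with DESeq2 (0.14) and limma-voom (0.15). With library totals NOP9 was at 0.28 and VTC4 was not called (-0.15).

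**Figure D4:**
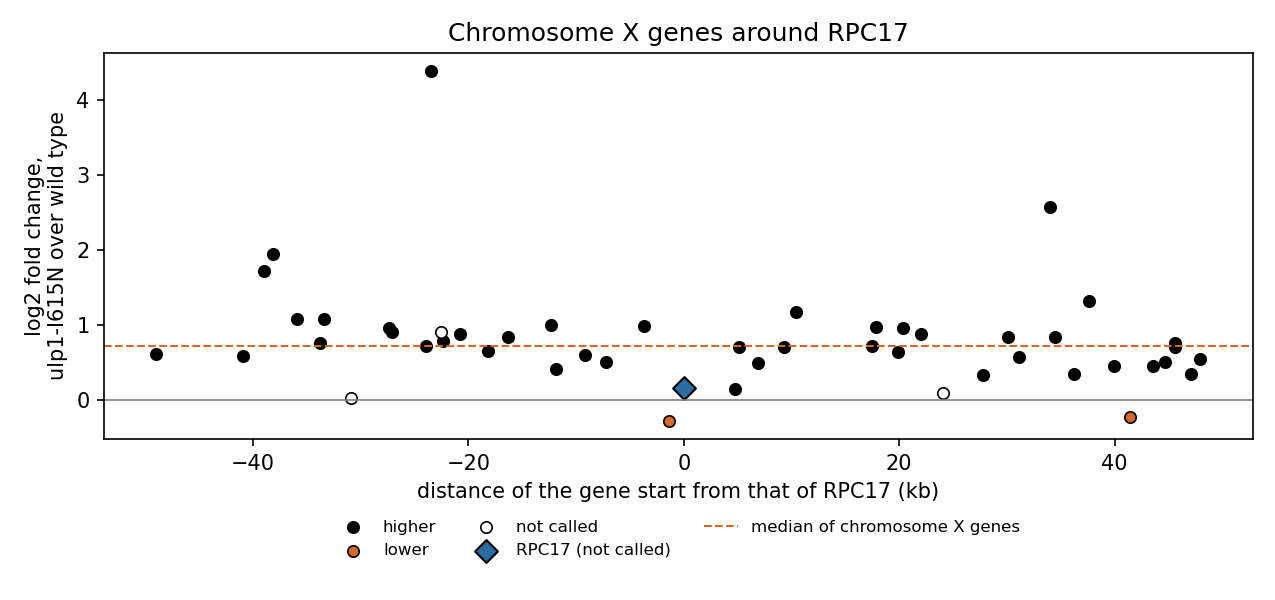
Log2 fold change, ulp1-I615N over wild type, of the tested chromosome X genes within 50 kb of RPC17, against the distance of the gene start from that of RPC17 in kb. RPC17 (diamond, 0.17) lies below the dashed chromosome median of 0.73, and only 5 of the 49 other genes lie below it.

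The nearest protein-coding neighbours of the other subunit genes did not share one direction. Of the 20 such neighbours of the 10 members, 8 were called higher, 8 lower and 4 not, beside 26.4% higher and 24.3% lower over all genes tested. PTP2, a phosphatase gene that starts 467 bases from RET1 and is read the other way, was higher (log2 fold change 0.86). QCR2, a respiratory chain gene 339 bases from RPC82 and likewise divergent, was higher (0.45), and RPT5, a proteasome gene divergent from RPO31, was also higher (0.24, and 0.37 with library totals). SAS10 beside RPC53 (-0.69), DBP7 beside RPC37 (-0.58) and LTV1 beside RPC25 (-0.58), which act in ribosome assembly and are also divergent from the subunit gene, were lower. The gap is 324 bases between SAS10 and RPC53 and 299 between LTV1 and RPC25. The stretches shown above lie 250 to 173 bases upstream of RPC53 and 206 to 164 upstream of RPC25. Both are therefore nearer to the start of the neighbour, and which gene their elements act on was not tested. NOC2, another gene of ribosome assembly, converges with RET1 and was lower (-0.62).

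The elements shown above were counted in windows from 250 bases before to 50 bases after the start of each of 5987 genes, on both strands. PAC (GCGATGAG) was found in 3.94% of all windows and in 3 members, RPC82, RPC31 and RPC25. Its core (GATGAG, which every PAC match contains) was found in 20.4% of all windows and in 8 members. RRPE (AAAAATTT) was found in 14.2% of all windows and in 7 members, which were RPO31, RET1, RPC82, RPC34, RPC53, RPC11 and RPC25. PAC core and RRPE occurred together in 5.65% of all windows and in 6 members. In 4 of the 6 they were within 10 bases of each other, with gaps of 3 bases in RPO31, 4 in RET1, 5 in RPC25 and 6 in RPC82, against 2.12% of all windows. That limit of 10 bases was set after the positions were seen. In RPC34 the gap was 27 bases and in RPC53 it was 42. One of the matches of RPC37 lay upstream of the start, and its other core matches lay across the start and in the coding part.

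The 8 members with the PAC core in their window were the 8 called lower, and the 2 without it, RPC11 and RPC17, were the 2 not called. This match was noticed after both were known, it was not tested, and the weaker calls among the 8 are named above. It rests on the shorter form, since the full PAC was in 3 of the 8. RPC17 is also the only member on chromosome X, where 90.6% of tested genes were called higher and RPC17 lay at the 5.50th percentile. Against the median of that chromosome RPC17 stood at -0.56, a value without a call, so the match holds for RPC17 only on the scale of all genes. For RPC17 the missing core and the place on that chromosome cannot be told apart. Across all genes with a window that were tested (5773), 25.4% were called lower and 27.5% higher. Of 1159 genes with the PAC core 40.6% were lower, and of 234 genes with PAC 68.4% were lower. Of 839 genes with RRPE 51.1% were lower. The share of lower genes was 71.4% of 336 genes with the PAC core and RRPE, 78.6% of 126 genes with both within 10 bases and 82.1% of 134 genes with PAC and RRPE. Of 4111 genes with neither the PAC core nor RRPE 19.6% were lower and 29.8% higher. The median log2 fold change was -0.40 for genes with PAC, -0.22 for those with RRPE and 0.05 for those with neither. The members are among these genes, and a match of letters does not show that a factor binds there. TOD6, which encodes a repressor that binds PAC, had 127 and 128 CPM in wild type and 69.4 and 67.3 CPM in the mutant and was itself called lower (-0.90, edgeR adjusted p = 1.72e-08). Of the 4 listed factors that act on PAC or RRPE genes, 2 were called lower and 2 not. DOT6, which encodes the related PAC repressor, had 211 and 171 CPM in wild type against 189 and 190 CPM in the mutant libraries (-0.01, edgeR adjusted p = 0.928). STB3, which binds RRPE, was not called (0.16, edgeR adjusted p = 0.295), but was called higher without wild type replicate 1 (0.31) and without mutant replicate 2 (0.29). SFP1, an activator of ribosome assembly genes, was lower (-0.30, and -0.17 with library totals).

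**Figure D5:**
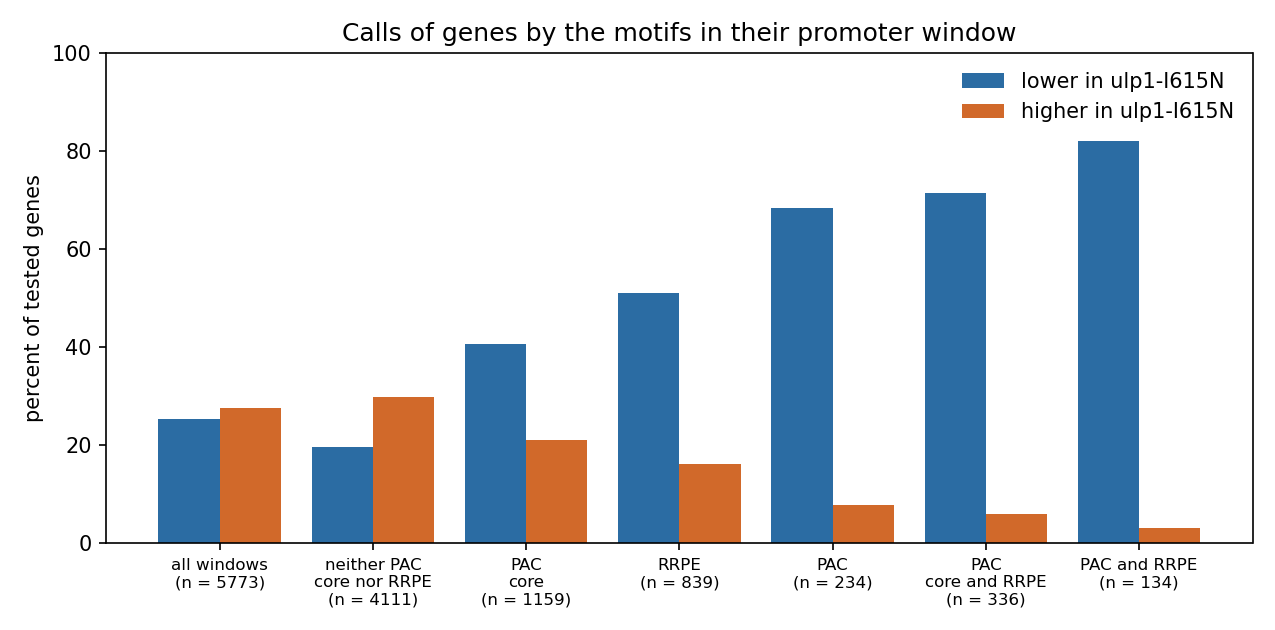
Percent of tested genes called lower (blue) or higher (orange) in ulp1-I615N, by the elements found in the window from 250 bases before to 50 bases after the start; n is the number of genes tested in each class. The share of lower genes is 25.4% over all windows and 82.1% where PAC and RRPE are both present, and classes share genes.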

How the data were processed

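The authors deposited 1 table of raw fragment counts per gene, made with featureCounts 2.0.0 on read pairs, per the file headers. Strand was not used, and fragments over several genes or places were not counted, so overlapping genes are uncertain. RPC53 overlaps YDL151C and RPC34 overlaps YNR003W-A. The gene length in the deposited table was used for levels per kb. The build sacCer3 and the tools Subread 2.0.0 and HISAT2 2.1.0 are listed in the submitters' processing notes. For the annotation version, nothing is stated in these sources. Poly(A) libraries were made with a directional NEB Ultra II kit, per the labels' protocols.

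Of 7126 features, 6048 matched a RefSeq R64 gene by locus tag, and symbols came from that match. Genes were tested with edgeR 4.0.16 under R 4.3.3, by its quasi-likelihood method (TMM scaling, robust dispersions, filterByExpr at count 10 and total 15, Benjamini-Hochberg threshold 0.05) on all 4 libraries without a block. It covered 6139 genes, with a common biological coefficient of variation of 0.0572. It was also run on simulated counts drawn from the means and dispersions of this same fit. These had few changed genes and no rise of chromosome X, so that run cannot check the scaling used here. The chi-square per degree of freedom between replicates was 9.20 in wild type and 8.42 in the mutant, so they were kept as separate libraries. Alternatives were other scalings, no filter, limma-voom (limma 3.58.1), DESeq2 1.42.0, a replicate block, each library left out, other motif lengths and, chosen after seeing the data, counting only genes outside chromosome X.

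The genes named are the 10 subunits, their nearest annotated protein-coding neighbours, up to 4 called members of each other list by size of change or the 2 with the smallest p where none was called, and the checks of the labels. MAF1, RPA34, RPA12 and RPB11 fall outside this rule and were named after their values were seen. Others are said in the text to have been picked after seeing values, or complete a list of 5 or fewer. The members and lists were chosen with earlier results of these data known.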

Additional observations from a re-analysis of the deposited data

How the results depend on the processing

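RPO31, RPC82, RPC31, RPC53 and RPC37 were called lower under every alternative run. Their log2 fold changes ranged from -0.53 to -0.33 for RPO31, -0.38 to -0.21 for RPC82, -0.85 to -0.62 for RPC31, -0.69 to -0.45 for RPC53 and -0.47 to -0.29 for RPC37. With library totals only, 866 genes and 5 members were called lower and 1 member, RPC17, was called higher. RET1 (-0.09, adjusted p = 0.260), RPC34 (-0.10, adjusted p = 0.366) and RPC25 (-0.16, adjusted p = 0.181) then lost their calls, and TFC1 (0.035), TRS33 (0.031) and MAF1 (0.13) changed sign without a call. MAF1 also changed sign with upper quartile scaling (0.0047), with scaling from genes outside chromosome X (0.022) and with a library left out (-0.054 to 0.047). With a library left out, RPB11 ranged from -0.025 to 0.13, at -0.0074 without wild type replicate 1, BRF1 from -0.0064 to 0.11 and HCA4 from -0.028 to 0.083. DOT6 changed sign with library totals (0.12), upper quartile scaling (0.00070) and scaling from genes outside chromosome X (0.018), and ranged from -0.15 to 0.13 with a library left out. RPC17 changed sign against the median of chromosome X (-0.56). In these cases the cause was not tested. DESeq2 called 2615 genes, 1307 higher and 1308 lower, and 7 members were lower. With each library left out in turn, 2604 to 3051 genes and 6 to 9 members were called, the lone library of a group being assumed to vary like the other group. PAC was in 3 members and its core in 8, and RRPE was in 7 members and its longer form in 3.

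With a replicate block 3433 genes were called against 3116 without it, and 8 members were lower in both, while STB3 was called higher with the block (0.17). The labels do not say that equal numbers mark a shared culture, and the deviations of same-numbered libraries correlated at 0.0807, so the numbers are not read as pairs. Counts outside chromosome X only gave 2776 called genes. With 2 libraries per group, 2 of the members' differences did not pass the test, and their intervals reach log2 fold changes of -0.33 for RPC11 and 0.36 for RPC17.

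As a check of the genotype labels, ADE2 (6190 and 6621 counts in wild type, 3116 and 7104 in the mutant) and ADE3 (2327 and 2388, 1368 and 3250), labelled as deleted in both strains, were counted in all libraries, and LYS1 had 4 or 5 counts in each.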
